A study of Toxocara canis with 2 samples.

Results

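MFP2 and MFP3 are accessory proteins of the fibers that make nematode sperm crawl. The 4 unigenes described here, assembled transcripts of the dog roundworm Toxocara canis, were chosen by name from a list drawn up with their male and female values in view: Unigene7412_All (best Nr protein match MFP2b), Unigene28938_All (MFP3), Unigene28892_All (the crystal structure of the sperm cell motility protein Mfp2) and Unigene28893_All (MFP2), the shared ending being left out below. They are 4 of 70267 unigenes seen in either library. Their difference between the sexes was part of that choice, so it is given as a description and supports nothing.

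One library came from a single adult male and one from a single adult female of the strain labelled Rongchang, each prepared from the polyadenylated RNA of the entire worm, and the labels name no treatment. Each sex has 1 library and hence no replicate, so no test was made, and every interval below covers counting error only, not variation between worms or library preparations. The male library held 18.4 M fragments and the female library 19.8 M. Amplified fragments are not independent molecules. The sperm and eggshell lists followed the sex labels: unigenes matching major sperm protein summed to 32605 FPKM in the male worm against 8.85 FPKM in the female worm (FPKM, fragments per kilobase of unigene and of 1000000 library fragments), and unigenes matching eggshell proteins to 453 FPKM in the male worm against 75385 FPKM in the female worm. The vitellogenin list, matching the yolk protein, summed to 425 FPKM in the male worm against 15057 FPKM in the female worm, but 10 of its 12 unigenes were higher in the male and 9 had 0 female fragments. Body tissue lists lay closer together in summed FPKM, muscle at 169 FPKM in the male worm against 334 FPKM in the female worm. The intestine list, matched on the words cathepsin or aminopeptidase, stood at 89.8 FPKM in the male worm against 324 FPKM in the female worm. Whether these words mark intestine alone was not tested. Of 23 muscle unigenes 15 were higher in the female and 8 in the male, and of 34 intestine unigenes 30 and 4. These lists hold only unigenes deposited with a log2 ratio of size 1 or more and a false discovery rate of at most 0.001. Unigenes at equal levels are thus left out, and the sums do not show that body tissue was alike. In whole worms, fewer sperm-forming cells and less RNA per cell cannot be told apart. The source of the few female fragments on sperm unigenes was not tested, so they are not read as expression by the female's own cells.

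Nematode sperm have no flagellum and move like amoebae, by assembling major sperm protein (MSP) into filaments bundled as fibers at the front of the cell and taking them apart at the rear. The accessory MSP fiber proteins (MFP) were described in Ascaris suum, a related roundworm. There MFP2 speeds fiber growth, MFP1 slows it, and MFP3 binds the filaments and stabilises the fiber. The membrane phosphoprotein MPOP organises assembly at the membrane, the kinase MPAK, of the casein kinase 1 family, phosphorylates MFP2, and protein phosphatase 2A removes phosphate from MFP3 where fibers disassemble.

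The MFP2b unigene was among the most abundant transcripts of the male worm. Unigene7412, 1323 bases long, had 132071 fragments in the male worm against 13 in the female worm. This is 5436 FPKM in the male worm against 0.497 FPKM in the female worm, and by FPKM it ranked 13th of the 64618 unigenes listed in the male library. Its share of the library was 10947-fold higher in the male (exact Clopper-Pearson 95% interval 6401 to 20560). It alone held 0.719% of all male fragments (0.715 to 0.723%). In the female library 23.2% of the 58435 listed unigenes had a lower FPKM, so the female level was low but above that of 3 fragments, 0.115 FPKM for this length, which is the bound used here for a count of 0.

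The MFP3 unigene was close behind per length. Unigene28938, only 265 bases long, had 20451 fragments in the male worm against 2 in the female worm. The levels were 4203 FPKM in the male worm against 0.381 FPKM in the female worm, the 17th highest FPKM of the male library. The female level lay under that of 3 fragments on so short a unigene, 0.572 FPKM. The ratio of library shares was 11018, with an interval of 3050 to 90986 that is wide because it rests on those 2 fragments. The MFP2b and MFP3 ratios differed by less than their counting intervals.

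Both remaining MFP2 unigenes had fragments in the male library only. Unigene28892, of 492 bases, had 16740 fragments in the male worm against 0 in the female worm, or 1853 FPKM in the male. Set against 3 female fragments (0.308 FPKM), this was a share higher by at least 6013-fold. Unigene28893, of 727 bases, had 23431 fragments in the male worm against 0 in the female worm, or 1755 FPKM in the male, at least 8416-fold higher (against 0.209 FPKM). They ranked 51st and 54th by FPKM in the male library. A count of 0 at this depth does not show that the transcript was absent from the female worm.

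**Figure D1:**
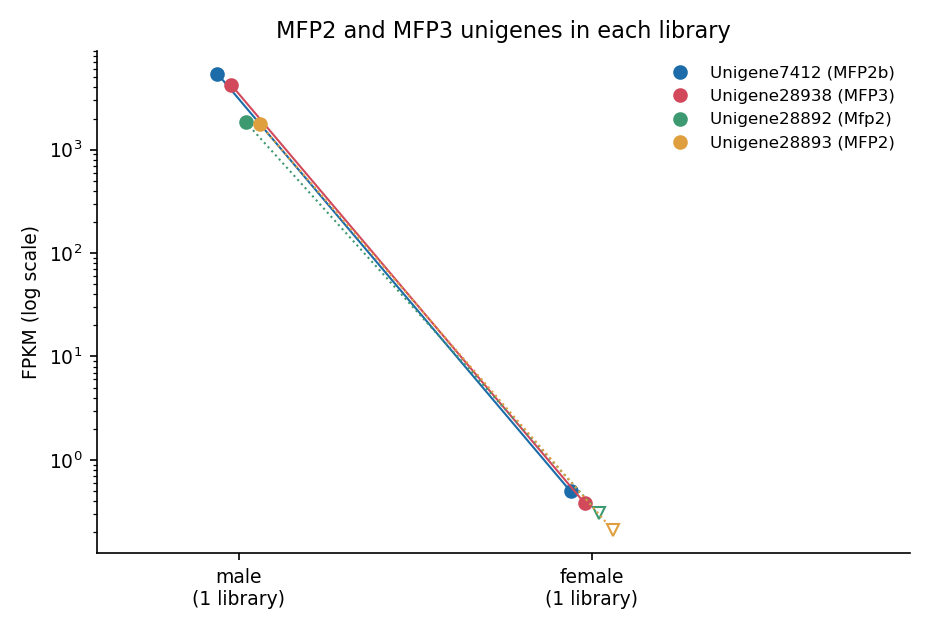
FPKM on a log scale for the 4 unigenes, with the male library left of the female library; points are single libraries, and open triangles mark the FPKM of 3 fragments for unigenes with 0 female fragments. All 4 lie between 1755 and 5436 FPKM in the male library and at or under 0.497 FPKM in the female library.

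By a rule of size used in place of a test, 5 FPKM or more in whichever library was higher and a log2 difference of at least 2 in log2(FPKM + 1), all 4 unigenes were higher in the male library. This log2 difference, male minus female, was 11.83 for Unigene7412, 11.57 for Unigene28938, 10.86 for Unigene28892 and 10.78 for Unigene28893. Of all 70267 unigenes, 4.5% passed the rule in the male and 2.38% in the female direction, while at a 2-fold limit the excess lay on the other side, with 4104 unigenes passing in the male and 4785 in the female direction. Among the 93 unigenes with at least 1000 FPKM in the male library, the range in which all 4 lie, 54.8% passed it in the male direction, and 18 of the 93 had 0 female fragments. Nothing is read from the members' count, since the same contrast chose them. In the authors' deposited table all 4 are listed as lower in the female with a false discovery rate of 0, by a test the headers do not name. That table lists 16.9% of all unigenes as lower in the female.

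**Figure D2:**
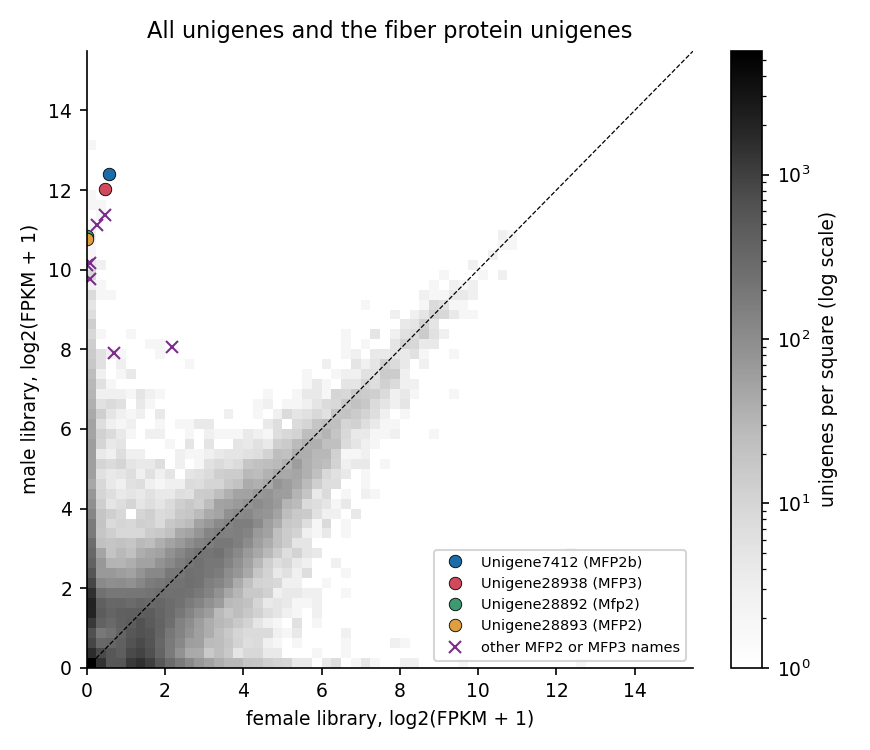
Every unigene by log2(FPKM + 1) in the female library (x axis) and the male library (y axis); grey squares count unigenes on a log scale, circles are the 4 unigenes, crosses the other 7 unigenes named MFP2 or MFP3, and the dashed line marks equal levels. The 4 sit along the left edge, where the female level is near 0 and the male level is among the highest.

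Among themselves the 4 unigenes stood in a clear order per length in the male library. Unigene7412 was 1.29 times Unigene28938 in FPKM (1.28 to 1.31) and 2.93 times Unigene28892 (2.89 to 2.98). Unigene28938 was 2.27 times Unigene28892 (2.22 to 2.32). Unigene28892 and Unigene28893 were nearly level, with a ratio of 1.06 (1.04 to 1.08). Beyond counting error these ratios also carry how fragments were assigned to each unigene, and FPKM of unigenes of short length is sensitive to fragments that overhang their ends. The order changes without the length: in raw fragments Unigene28938 had 0.873 times the count of Unigene28893.

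The matches differed in strength. In the authors' deposited table Unigene7412 matched Ascaris MFP2b protein with a bit score of 761.1 and an E-value of 0. The Nr scores were 113.2 (E-value 3e-24) for Unigene28938, 92 (2e-17) for Unigene28893 and 73.6 (3e-12) for Unigene28892. Unigene28892 and Unigene28893 share a best nucleotide match, the Ascaris MFP2 mRNA, at bit scores of 293 and 262 in that deposited table. Unigene29523, a further MFP2 name described below, had the same nucleotide match at 204. Whether these unigenes are pieces of a single transcript or separate copies was not tested. Fragments of near-identical copies can be split between unigenes, so the levels of single MFP2 unigenes are uncertain. None of the 4 had a Swiss-Prot, COG or KEGG match, and only Unigene7412 carried gene ontology terms, metal ion binding and embryo development ending in birth or egg hatching.

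The deposited annotation held 7 further unigenes with an MFP2 or MFP3 name, and all 7 passed the rule of size in the male direction, with a median log2 difference of 10.08 (12.78 without a pseudocount, taking 3 fragments for a count of 0). Among all 8589 described unigenes deposited there, 15.9% passed in the male and 8.77% in the female direction, with a median of -0.32, and all 21280 unigenes of the table were deposited with a log2 ratio of size 1 or more and a false discovery rate of at most 0.001. The additional MFP3 unigenes lay within the range of the 4 in the male library. Unigene28951, of 541 bases, had 2636 FPKM in the male worm against 0.374 FPKM in the female worm (ratio 7053, 2754 to 25888). Unigene26611, of 498 bases, had 2223 FPKM in the male worm against 0.203 FPKM in the female worm, where it held 2 fragments (ratio 10953, 3032 to 90448). Their Swiss-Prot matches were formin-2 and diaphanous homolog 1, which are actin-nucleating proteins and not sperm fiber proteins. Their Nr matches to MFP3 had bit scores of 57.8 and 53.1 in the authors' deposited table. By nucleotide, Unigene26611 matched the Ascaris MFP3 mRNA at a bit score of 127 (E-value 5e-26), while Unigene28951 had no match.

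The further MFP2 names all lay below the 4 unigenes in the male library, between 237 and 1149 FPKM. Unigene29084, of 1651 bases, matched MFP2c with a deposited Nr bit score of 518.9. It had 1149 FPKM in the male worm against 0.0612 FPKM in the female worm, where it held 2 fragments (ratio 18775, 5197 to 155034). Unigene29083, a piece of 237 bases matching MFP2b, had 1114 FPKM in the male worm against 0 fragments in the female worm, at least 1741-fold higher. Unigene29523, matching MFP2, had 863 FPKM in the male worm against 0.0668 FPKM in the female worm, where it held 1 fragment (ratio 12923, 2319 to 510459). A pair stood apart: CL4765.Contig1, matching the Mfp2 structure, had 237 FPKM in the male worm against 0.635 FPKM in the female worm (ratio 374, 255 to 573). CL4740.Contig1, matching MFP2c, had 265 FPKM in the male worm against 3.50 FPKM in the female worm (ratio 75.7, 60.7 to 95.6). The MFP2 names of this pair are uncertain, with deposited Nr bit scores of 59.3 for CL4765.Contig1 and 59.7 for CL4740.Contig1. CL4765.Contig1 had no nucleotide match. CL4740.Contig1 matched the Ascaris MFP2c mRNA at 75.8, but in Swiss-Prot the transferase subunit ALG13. A low Nr score was not confined to the pair, since Unigene29083 had 53.9.

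These 2 contigs carried most of the female fragments under these names. CL4740.Contig1 had 80 and CL4765.Contig1 26 of the 130 female fragments on all 11 unigenes, while the 4 unigenes together had 192693 fragments in the male worm against 15 in the female worm. The intervals of both ratios lie below those of Unigene7412 and Unigene28938. Over the other 7 names together the ratio of library shares was 1057 (881 to 1281), and without CL4740.Contig1 it was 3301 (2373 to 4739).

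**Figure D3:**
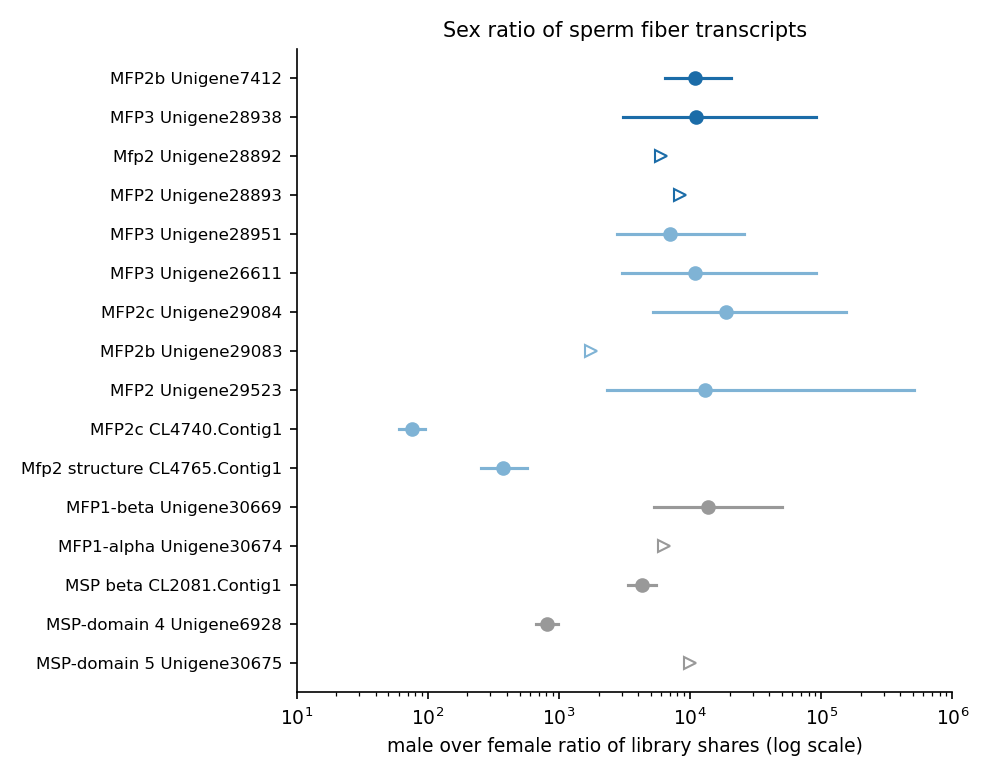
Ratio of library shares, male over female, on a log scale; filled points have exact 95% intervals for counting error, and open triangles are lower bounds against 3 female fragments. Dark blue marks the 4 unigenes, light blue the other MFP2 and MFP3 names and grey 5 of the MFP1, MSP and MSP-domain unigenes, those described in the text with over 1000 FPKM in the male library; CL4740.Contig1 at 75.7 and CL4765.Contig1 at 374 lie left of the other unigenes plotted.

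Summed by name, MFP2 unigenes held more male fragments than MFP3 unigenes. The 8 MFP2 names held 1.30% of male fragments (1.29 to 1.30%) and 0.000617% of female fragments (0.000512 to 0.000736%). Of these 122 female fragments, 80 lay on CL4740.Contig1 and 26 on CL4765.Contig1, whose MFP2 names are uncertain. The 3 MFP3 names held 0.365% of male fragments (0.362 to 0.367%) and 4.04e-05% of female fragments (1.75e-05 to 7.97e-05%), that is 8 fragments. Per length the gap was smaller, with summed levels of 12673 FPKM for MFP2 and 9062 FPKM for MFP3 names in the male library, against 4.76 FPKM and 0.958 FPKM in the female library. If several unigenes are pieces of a single transcript, such a sum counts that transcript more than once per length, so the sum of fragments is the safer quantity.

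MFP1, the partner protein of MFP2, was also abundant in the male library. In Ascaris MFP1 slows fiber growth; its list had 15 unigenes, 13 of which passed the rule in the male and 0 in the female direction, with a median log2 difference of 3.91 (5.91 without a pseudocount, taking 3 fragments for a count of 0). Unigene30669, matching MFP1-beta, had 1968 FPKM in the male worm against 0.144 FPKM in the female worm (ratio 13659, 5334 to 50131). Unigene7412 was 2.76 times this level per length in the male library (2.73 to 2.79) and Unigene28938 2.14 times (2.10 to 2.17). The MFP1-beta names were not alike: CL2135.Contig4, of 1001 bases, had 28.1 FPKM in the male worm against 6.11 FPKM in the female worm (ratio 4.60, 3.77 to 5.66). It held 121 of the 126 female fragments on all 15 MFP1 unigenes, whose joint ratio was 611 (513 to 734). All 11 MFP1-alpha unigenes had 0 female fragments, with 20092 male fragments in sum. The highest of them was Unigene30674, at 1446 FPKM in the male worm against 0 fragments in the female worm.

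MSP itself, the filament subunit, was higher per length than each of its accessory proteins in the male library. The list of 17 unigenes was matched on major sperm protein in Nr or Swiss-Prot descriptions. Some of them, such as Unigene27771 and CL5664.Contig2, are named MSP domain-containing protein in Nr. Of the 17, 8 passed in the male and 0 in the female direction, with a median log2 difference of 1.76. That median was 4.86 with Nr descriptions alone, when 5 passed, and 4.90 without a pseudocount, taking 3 fragments for a count of 0. Of the list's 282402 male fragments, 274109 lay on CL2081.Contig1, whose protein matches were MSP isoform beta and whose nucleotide match was MSP isoform alpha. It had 32102 FPKM in the male worm against 7.50 FPKM in the female worm. Per length this was 5.91 times Unigene7412 (5.87 to 5.94) and 7.64 times Unigene28938 (7.53 to 7.75) in the male library. Its ratio of library shares, 4281 (3382 to 5502), had an interval below that of Unigene7412 and overlapping that of Unigene28938. In fragments, the 4 unigenes held 1.05% of the male library, and the MSP list 1.54% (1.53 to 1.54%).

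**Figure D4:**
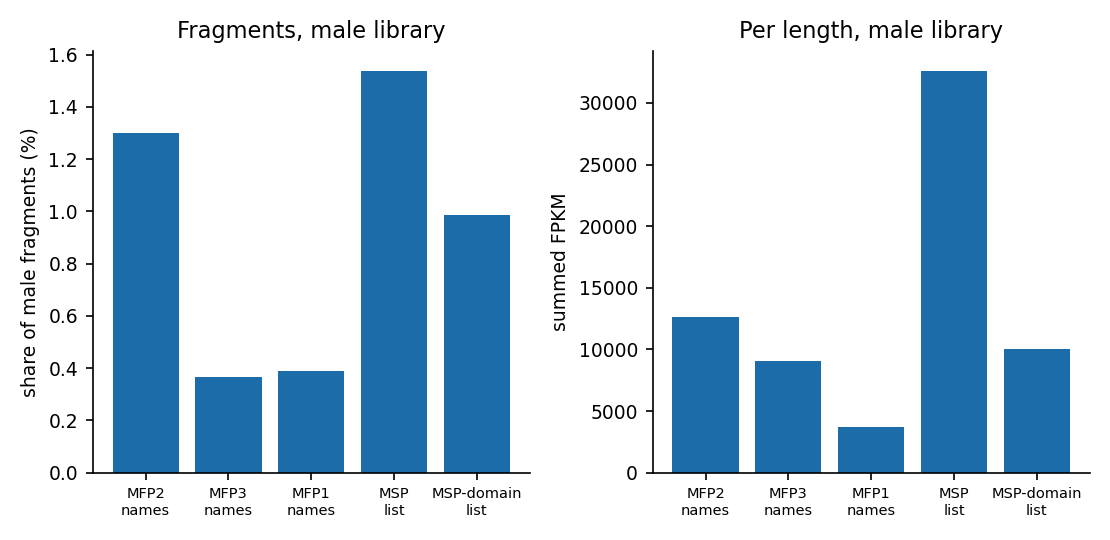
Share of male fragments in percent (left) and summed FPKM (right) for unigenes named MFP2 (8), MFP3 (3) and MFP1 (15) and for the MSP (17) and MSP-domain (48) lists; bars start at 0 and are single values of the male library. MFP2 names hold 1.30% of male fragments beside 1.54% for the MSP list, while per length MSP is highest at 32605 FPKM.

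The MSP-domain list, proteins that share the MSP fold, had 48 unigenes, of which 37 passed the rule in the male and 0 in the female direction, with a median of 4.70 (6.49 without a pseudocount). MSP-domain protein 4 (Unigene6928) had 4612 FPKM in the male worm against 5.70 FPKM in the female worm, a ratio of 809 (670 to 986) whose interval lay below those of Unigene7412 and Unigene28938. MSP-domain protein 5 (Unigene30675) had 1512 FPKM in the male worm against 0 fragments in the female worm. The outermost unigene in the other direction, CL1164.Contig3, had 0.571 FPKM in the male worm against 2.65 FPKM in the female worm. A further 32 unigenes had sperm in their description, 13 passing in the male and 1 in the female direction, with a median of 1.68. With Nr descriptions alone 2 passed in the male direction and the median was -0.71, in the opposite direction. The female one, CL6109.Contig1, matched a mouse sperm mitochondrial cysteine-rich protein, with 7.04 FPKM in the male worm against 1350 FPKM in the female worm.

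For the enzymes that act on MFP2 and MFP3 in Ascaris, the result depended on the words searched. No description named MPOP or MPAK. The casein kinase 1 list held 4 unigenes, 0 of which passed the rule in either direction, with a median log2 difference of 0.77 (1.33 without a pseudocount). The most abundant were CL1753.Contig2, at 43.7 FPKM in the male worm against 18.9 FPKM in the female worm, and Unigene8720, at 12.9 FPKM in the male worm against 47.0 FPKM in the female worm. That list missed kinases described only as CK1, the short name of the family. With these added after the data were seen, it held 104 unigenes, 38 passing in the male and 0 in the female direction, with a median of 1.87, and summed to 2410 FPKM in the male worm against 83.6 FPKM in the female worm. Which of them, if any, corresponds to MPAK was not tested. The protein phosphatase 2A list held 4 unigenes, 0 passing in the male and 1 in the female direction, with a median of -1.07. That one, Unigene12720, had 0.510 FPKM in the male worm against 29.2 FPKM in the female worm. All 4 matched regulatory subunits in Swiss-Prot, so the list does not give the level of a catalytic subunit. Descriptions were read for unigenes of the authors' table only. All of these were deposited with a log2 ratio of size 1 or more and a false discovery rate of at most 0.001. Kinase and phosphatase unigenes at equal levels are thus not in these lists, and the medians do not describe either family as a whole. Of all described unigenes there, 15.9% passed in the male and 8.77% in the female direction.

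The described unigenes most like the 4 in level were named by their distance from the mean of the 4 in log2(FPKM + 1) over the 2 libraries, which share their depth and preparation with them. The nearest was CL4661.Contig1 at a distance of 0.17, with 3114 FPKM in the male worm against 0.324 FPKM in the female worm, under a best Nr match to an IWS1-like protein. The next were both other MFP3 names, Unigene28951 at 0.25 and Unigene26611 at 0.40. They were followed by Unigene30673 at 0.47, a hypothetical protein with 2131 FPKM in the male worm against 0.135 FPKM in the female worm, and CL2178.Contig1 at 0.51, an argonaut-like match in Dictyostelium with 3987 FPKM in the male worm against 0 fragments in the female worm. The 4 unigenes themselves lay 0.56 to 0.94 from their mean. Taken singly, Unigene28938 was again nearest to CL4661.Contig1, Unigene28892 and Unigene28893 both to Unigene24405 (1618 FPKM in the male worm against 0 fragments in the female worm), and Unigene7412 to CL2178.Contig2 (7285 FPKM in the male worm against 0 fragments in the female worm). With 2 libraries, such likeness says only that levels are similar.

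The size of the log2 difference depended on how a female count of 0 was treated. In the authors' deposited table, whose log2 ratio runs female over male, Unigene28892 and Unigene28893 are listed at -20.82 and -20.74, against -13.42 for Unigene7412 and -13.43 for Unigene28938. With a pseudocount of 1 FPKM the order was the other way, Unigene7412 being the most different and Unigene28893 the least. With lower bounds of 6013 and 8416, Unigene28892 and Unigene28893 are not shown to differ more between the sexes than the other 2.

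**Figure D5:**
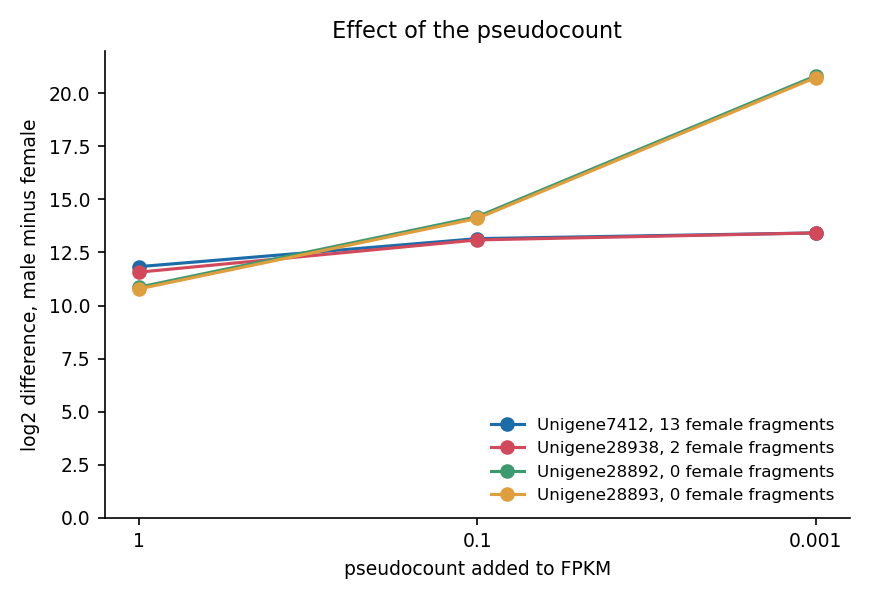
Log2 difference, male minus female, of the 4 unigenes with 1, 0.1 or 0.001 FPKM added to both libraries; each line is a unigene. Those with 0 female fragments move to 20.82 and 20.74 at 0.001, while both with female fragments reach 13.42.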

How the data were processed

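One male and one female library of whole adult worms were compared. Each library has a table of raw fragment counts per unigene, with unigene length and FPKM, as the authors deposited it per the file headers. A further deposited table holds the authors' log2 ratio (female over male), p-value and false discovery rate, and the bit score of each best database match. Assembler, aligner and counter: not given in the sources used here. FPKM values recomputed from the counts, lengths and library totals differed from the deposited ones by no more than 0.0001 for all 70267 unigenes, and counts were the same in both kinds of table. A unigene missing from a library's table was taken as 0.

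The ratio of library shares (male over female) has an exact 95% Clopper-Pearson interval; a count of 0 was set to 3 fragments. The rule of size used a pseudocount of 1 FPKM. Members and lists were chosen with earlier results of these data known; lists are patterns in Nr and Swiss-Prot descriptions without organism names, each unigene in the first list it matched. Named were the 4 unigenes, the 5 described unigenes nearest in level and the nearest to each of the 4, and per list the 3 most abundant and the outermost in each direction (lists of 5 or fewer in full), of which the text gives a part. All 7 other MFP2 and MFP3 names are given, a choice made after their values were seen. Alternatives were other scalings (edgeR 4.0.16 for TMM factors), pseudocounts, thresholds and Nr descriptions alone. Intervals came from SciPy 1.17.1 and figures from matplotlib 3.10.9, run in Python 3.11.15 with pandas 2.3.3, and the calculations were tested on simulated data.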

Additional observations from a re-analysis of the deposited data

How the results depend on the processing

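All 4 unigenes passed the rule of size in the male direction at 2-fold, at 16-fold, with no minimum of FPKM and with a minimum of 50 FPKM. Scaling by the median of count ratios or by TMM moved every male over female ratio up by 0.36 and 0.41 on the log2 scale; totals without the 10 most abundant unigenes of each library moved it by -0.08. The bound of Unigene28892 became 7721, 8004 and 5695 under these 3 scalings, and that of Unigene28893 10807, 11203 and 7971; the ratios of Unigene7412 and Unigene28938 stayed within their counting intervals. With pseudocounts of 0.1 and 0.001 FPKM the log2 difference was 13.15 and 13.42 for Unigene7412, 13.09 and 13.42 for Unigene28938, 14.18 and 20.82 for Unigene28892, and 14.10 and 20.74 for Unigene28893. Of all unigenes, 1186 passed in the male and 270 in the female direction at 16-fold, against 3160 and 1669 at 4-fold, and 4104 and 4785 at 2-fold, where the excess lay on the female side. With 0 counts at 3 fragments and no pseudocount, list medians were 12.78 (other MFP2 and MFP3 names), 5.91 (MFP1), 4.90 (MSP), 6.49 (MSP-domain) and 1.33 (casein kinase 1). With Nr descriptions alone the MSP list had 5 unigenes passing in the male direction and a median of 4.86. The other sperm descriptions then had 2 passing and a median of -0.71, in the opposite direction to the 1.68 of both descriptions. Unigenes with sperm in their Swiss-Prot description alone, such as Unigene22576 and CL1296.Contig1, are then out of the list. The level of each unigene stays the same. With CK1 names added, chosen after seeing the data, the casein kinase 1 list had 38 passing in the male direction and a median of 1.87, against 0 and 0.77. No paired analysis was possible because each sex has 1 library. Female values of 0 to 13 fragments limit how large a ratio these libraries can resolve, and no replicate shows how far other worms would differ.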
